A study of Mus musculus with 9 samples.

Results

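The canonical Wnt pathway was described here through 53 protein-coding genes, chosen by gene name alone from the 33175 genes with a count in at least 1 of 9 hippocampal libraries. They are 19 Wnt ligands, 10 Frizzled receptors, 2 co-receptors, 8 secreted inhibitors, 3 intracellular or membrane inhibitors, 3 Dishevelled genes, 4 genes of beta-catenin and its destruction complex, and 4 nuclear factors. Each of 3 groups had 3 libraries of female mice aged 9 months. LP-10d 3xTg mice were dosed orally with LP-10d, a test compound, at 10 mg/kg on 4 occasions per week over 1 month. 3xTg vehicle mice carried the same kinds of transgenes and received blank solvent 4 times a week. WT vehicle mice were C57BL/6J and received the same solvent. The 3xTg line is a model of Alzheimer's disease with the transgene label APPSwe/tauP301L/PS1M146V, that is, mutant human APP and tau together with mutant presenilin 1. The PS1 number in that label was 146 in the first 3xTg vehicle library and 1 higher in each next library, up to 151 in LP-10d replicate 3, so the presenilin allele of the later libraries is uncertain. In the 3xTg line as commonly described, a Thy1 promoter active in neurons drives APP and tau, and the presenilin change sits in the mouse gene. The labels name no strain background for 3xTg mice, so effects of strain and of transgenes cannot be told apart. LP-10d is named in the series title only as a modulator of several kinases. Nothing in the labels ties each replicate to its own animal, and p-values therefore reflect the spread among libraries, which may be technical.

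Wnt ligands are lipid-modified secreted proteins that bind a Frizzled receptor together with the co-receptor LRP5 or LRP6. Dishevelled then carries the signal to the destruction complex of APC, AXIN and glycogen synthase kinase 3, which otherwise marks beta-catenin for degradation. Beta-catenin that is spared enters the nucleus and acts with TCF and LEF factors, whose targets include the feedback inhibitors Axin2, Nkd1, Znrf3 and Rnf43. In the adult hippocampus the pathway is known for roles in neurogenesis of the dentate gyrus, in synapse formation and in the blood-brain barrier.

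Total counts ran from 16582086 to 19170969 per library. Some libraries stood apart in markers of tissue that borders the hippocampus, and several Wnt genes moved with them. The summed level of 9 thalamus and habenula markers, all detected, was 125 to 185 CPM (counts scaled to library size) in LP-10d libraries, 126 to 347 CPM in 3xTg vehicle libraries and 114 to 393 CPM in WT vehicle libraries. The highest values belonged to 3xTg vehicle replicate 2 and WT vehicle replicate 3. Tcf7l2, counted below among the further pathway genes, is 1 of these 9 markers, so the list is not free of pathway genes. The summed level of 9 striatal markers, all detected, was 188 to 195 CPM in LP-10d libraries, 186 to 1569 CPM in 3xTg vehicle libraries and 204 to 318 CPM in WT vehicle libraries, with the top value again in 3xTg vehicle replicate 2. The summed level of 12 choroid plexus markers, all detected, ranged from 193 to 3932 CPM in LP-10d, from 190 to 1522 CPM in 3xTg vehicle and from 227 to 6264 CPM in WT vehicle libraries. The thalamic marker Gbx2 had 0 counts in LP-10d replicate 3 and 3xTg vehicle replicate 1, and no other of these markers was at 0 in any library. Summed levels of some marker lists within the hippocampus also differed between groups without overlap. In 3xTg vehicle libraries, against WT vehicle libraries, the summed level was 429 to 537 against 556 to 743 CPM for 10 dentate gyrus markers and 362 to 415 against 434 to 548 CPM for 10 CA3 and CA2 markers. It was 383 to 414 against 454 to 481 CPM for 8 markers of oligodendrocyte precursors, 5194 to 6584 against 7287 to 7775 CPM for 8 myelin markers, and 106 to 120 against 77.5 to 91.9 CPM for 6 Cajal-Retzius markers. For myelin and Cajal-Retzius markers only the sums were apart. Their scores, mean log2 deviations from the 9 libraries, overlapped between these groups. They ran from -0.287 to 0.0549 against -0.106 to 0.203 for myelin. For the 5 Cajal-Retzius markers with enough counts they ran from -0.344 to 0.21 against -0.153 to 0.505. The sums of the other lists, such as CA1, astrocytes and microglia, overlapped between these groups. LP-10d libraries were at 432 to 541 CPM for the dentate gyrus markers, below all WT vehicle libraries, and at 419 to 439 CPM for the CA3 and CA2 markers, above all 3xTg vehicle libraries. All genes of these lists were detected, and the part of these differences in the Wnt gene values below was not tested. In bulk tissue, fewer cells of a type and less RNA per cell cannot be told apart.

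Levels between genes were compared in the authors' FPKM values, which are scaled by gene length, as mean ± SD over all 9 libraries. Beta-catenin with its destruction complex, led by Ctnnb1, and the Dishevelled genes had the highest summed levels of the roles: the summed means were 104 FPKM for beta-catenin and its destruction complex and 59.3 FPKM for the Dishevelled genes, beside 37.0 FPKM for the 19 ligands and 24.1 FPKM for the 10 Frizzled receptors. The other roles summed to 7.40 FPKM for the co-receptors, 7.21 FPKM for the intracellular or membrane inhibitors, 4.56 FPKM for the secreted inhibitors and 3.66 FPKM for the nuclear factors. Ctnnb1, which encodes beta-catenin, stood at 70.4 ± 6.43 FPKM, and Dvl1, the leading Dishevelled gene, at 38.2 ± 5.37 FPKM. Within beta-catenin and its destruction complex the order was Ctnnb1, Apc (17.2 ± 2.39 FPKM), Axin1 (10.5 ± 0.727 FPKM) and Axin2 (5.81 ± 0.670 FPKM), and no library of one gene reached the range of the next. Within the Dishevelled family Dvl1, Dvl3 (14.6 ± 2.28 FPKM) and Dvl2 (6.52 ± 0.644 FPKM) were likewise apart in all libraries.

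Among the ligands, Wnt7b had the highest level in every library, at 13.0 ± 1.64 FPKM. It was followed by Wnt7a (5.40 ± 0.895 FPKM), Wnt4 (4.15 ± 0.884 FPKM), Wnt9a (3.55 ± 0.621 FPKM) and Wnt10a (2.06 ± 1.01 FPKM). Wnt7a and Wnt7b are the ligands known to act on brain endothelium through GPR124 and RECK. Below Wnt7b, the ranges of neighbours in the order overlapped at every step down to the lowest ligand. Wnt3a, a ligand known from hippocampal development, and Wnt8a were the lowest, at 0.0617 ± 0.0427 and 0.0642 ± 0.0436 FPKM.

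The Frizzled receptors formed a shallower series. Fzd2 was highest at 3.96 ± 0.682 FPKM, and Fzd3, Fzd7, Fzd1, Fzd9 and Fzd4 followed with means of 3.92 to 2.65 FPKM and overlapping ranges. The single gap in the order lay between Fzd8, at 1.84 ± 0.246 FPKM, and Fzd6, at 0.709 ± 0.122 FPKM. Fzd5 was lowest at 0.286 ± 0.101 FPKM. The co-receptor Lrp6, at 4.76 ± 0.428 FPKM, was above Lrp5, at 2.64 ± 0.464 FPKM, in all libraries.

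Secreted inhibitors were low. Sfrp1, a secreted Frizzled-related protein that binds Wnts, led them at 1.82 ± 0.648 FPKM. Dkk1, an LRP6 antagonist, was lowest, with 2 counts in all, 1 each in WT vehicle replicates 1 and 2. It was listed at 0 in the 6 libraries of 3xTg mice, where a count of 0 allows up to 3 counts per library. Of the inhibitors in the receiving cell, Nkd1, which binds Dishevelled, was at 3.75 ± 0.453 FPKM. The receptor-removing ubiquitin ligases Znrf3 and Rnf43 were at 2.55 ± 0.318 and 0.901 ± 0.180 FPKM. Of the nuclear factors chosen by name, Tcf7 led at 1.52 ± 0.399 FPKM and Sp5, a direct target in embryos, was lowest at 0.173 ± 0.0669 FPKM. Tcf7l2 was not among the chosen names and was tested with the further pathway genes, so this order and the summed level leave it out. Together, 48 of the 53 genes passed the filter on low counts; Wnt3a, Wnt8a, Dkk1, Dkk4 and Sp5 did not and have no test.

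**Figure D1:**
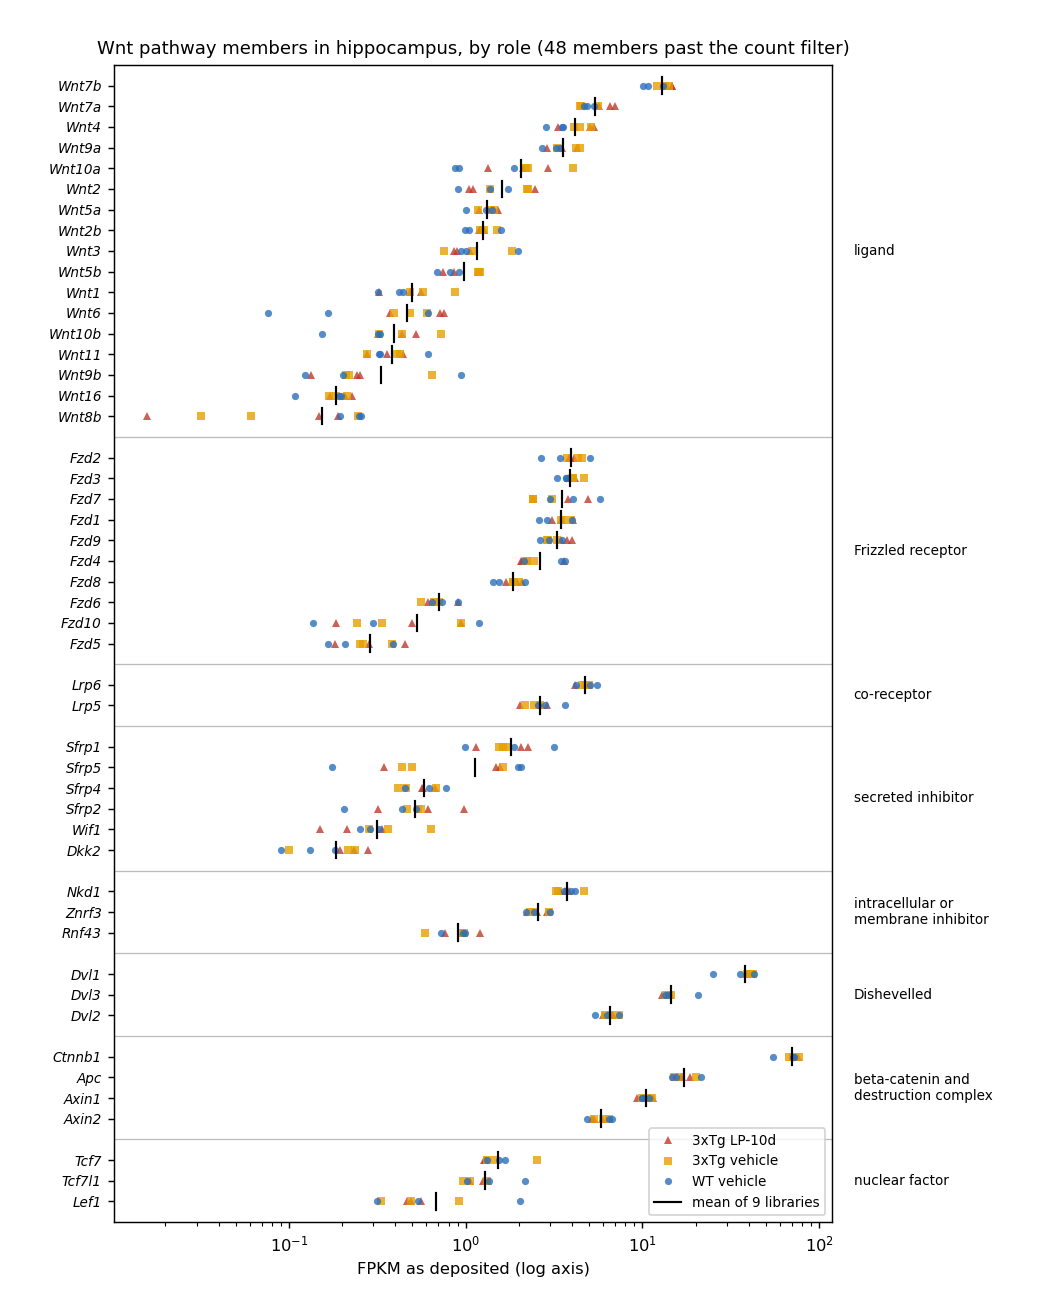
Deposited FPKM of the 48 genes that passed the count filter, on a log axis, grouped by role and ordered by mean within each role. Each symbol is 1 library and each black bar the mean of 9 libraries; Ctnnb1 is highest at 70.4 FPKM, Wnt7b leads the ligands at 13.0 FPKM, and Lef1 and Wnt9b show single libraries far from the rest.

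Promoters were searched for the TCF/LEF sequences ATCAAAG and TTCAAAG on both strands, from 250 bases before to 50 bases after the start, in the RefSeq windows of GRCm38.p6. Of the 53 genes, 37 had a window, and 4 of these (10.8%) held a match in at least 1 window: Dkk1, Sp5, Wnt5b and Wnt11. Of all 27025 genes in the table, 9.88% did, so the share among the Wnt genes was near that of all genes. By window the shares were 8.7% of 46 and 8.65% of 32851. A match is a description of letters, not of a bound site. The 4 windows below belong to the ligand with the smallest p under LP-10d (Wnt7a), the partner of beta-catenin on DNA (Lef1, the first of 4 windows), and 2 genes with a match, an embryonic target (Sp5) and a ligand described below (Wnt5b, the first of 3 windows). They lie at chr6:91411304-91411603 (minus strand), chr3:131110047-131110346 (plus strand), chr2:70474673-70474972 (plus strand) and chr6:119449337-119449636 (minus strand). Capitals mark the match, here on the opposite strand, so that it reads as CTTTGAT.
Wnt7a: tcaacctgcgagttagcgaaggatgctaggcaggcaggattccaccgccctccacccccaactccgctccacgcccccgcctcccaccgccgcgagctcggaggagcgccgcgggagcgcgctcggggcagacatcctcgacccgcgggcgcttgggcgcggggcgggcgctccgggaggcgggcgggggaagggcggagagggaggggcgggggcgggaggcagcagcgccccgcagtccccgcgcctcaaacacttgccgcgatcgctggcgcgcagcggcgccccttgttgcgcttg
Lef1: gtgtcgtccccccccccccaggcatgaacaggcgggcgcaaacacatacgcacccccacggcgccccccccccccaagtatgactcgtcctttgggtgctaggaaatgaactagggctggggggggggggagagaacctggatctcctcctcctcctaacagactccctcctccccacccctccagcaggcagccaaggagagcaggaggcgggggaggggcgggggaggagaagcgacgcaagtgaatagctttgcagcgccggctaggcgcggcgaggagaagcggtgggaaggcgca
Sp5: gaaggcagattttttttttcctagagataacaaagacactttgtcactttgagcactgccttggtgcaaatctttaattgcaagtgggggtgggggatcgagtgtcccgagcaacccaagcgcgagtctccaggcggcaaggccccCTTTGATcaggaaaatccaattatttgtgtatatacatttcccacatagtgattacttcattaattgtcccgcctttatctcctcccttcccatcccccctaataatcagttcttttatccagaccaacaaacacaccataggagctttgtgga
Wnt5b: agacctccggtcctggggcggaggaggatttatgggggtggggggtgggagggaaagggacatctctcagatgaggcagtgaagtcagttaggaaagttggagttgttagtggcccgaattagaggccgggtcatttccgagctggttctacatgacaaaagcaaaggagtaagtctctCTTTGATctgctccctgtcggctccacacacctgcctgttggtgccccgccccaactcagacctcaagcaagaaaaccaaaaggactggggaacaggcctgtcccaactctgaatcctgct
The match began 104 bases before the start in Sp5 and 71 bases before the start of the Wnt5b window shown. That window, the first by coordinate, lies inside the gene, which spans chr6:119432531-119544347 on the minus strand. The Wnt5b window at the outer gene start, chr6:119544298-119544597, and the one at chr6:119467162-119467461 held no match. The Wnt7a and Lef1 windows shown held no full match of either sequence.

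The first comparison asked how the 3xTg genotype stood against wild type under vehicle. No Wnt gene passed the adjusted threshold. Of the 17 ligands tested, 12 had a positive fold change, beside 8728 of 17396 genes, and the smallest p-values among ligands belonged to Wnt10a, Wnt5b, Wnt10b and Wnt4. The receptor gene Fzd7 and the co-receptor gene Lrp5 were lower in every 3xTg vehicle library than in any WT vehicle library, as described below. Of the 4 genes of beta-catenin and the destruction complex, 2 were slightly higher and 2 slightly lower, and none had an unadjusted p under 0.05.

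By the quasi-likelihood test of edgeR, with p-values adjusted over 17396 genes by Benjamini-Hochberg, 0 of 48 Wnt genes were past 0.05, and 1 gene of all (0.00575%) was. DESeq2 called 351 genes and limma-voom 1, with 0 Wnt genes in each. At an unadjusted edgeR p under 0.05 there were 7 of 48 Wnt genes (14.6%), 5 higher and 2 lower, beside 14.1% of all genes. The 2 groups did not overlap for 7 Wnt genes (14.6%), beside 17.4% of all genes. Both shares were near those of all genes. The median log2 fold change of the 48 genes was 0.03, beside 0.000661 over all genes. With 3 libraries on each side, the smallest p that an exact permutation test allows is 0.1.

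Wnt10a, a ligand known from skin and tooth development, had the largest difference. It stood at 5.58, 5.39 and 9.96 CPM in 3xTg vehicle libraries, against 2.34, 4.51 and 2.28 CPM in WT vehicle libraries. All 3xTg vehicle values lay above all WT values, and the log2 fold change was 1.19 ± 0.37 (SE; edgeR unadjusted p = 0.00915, adjusted p = 0.236). The value was 1.16 without 3xTg vehicle replicate 2 and WT vehicle replicate 3, and 1.08 with choroid plexus and thalamus plus striatum scores as covariates.

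Wnt5b and Wnt4 were also higher in each 3xTg vehicle library. Wnt5b, a ligand of mostly beta-catenin-independent signalling, was at 3.16, 3.18 and 3.10 CPM in 3xTg vehicle libraries, against 2.23, 2.36 and 1.95 CPM in WT vehicle libraries. Its log2 fold change was 0.53 ± 0.20 (edgeR adjusted p = 0.296). The gene shares 2963 bases with Fbxl14 on the opposite strand, which had 5174 counts in all beside 420 of Wnt5b, and no source used here gives the strand setting of the counting, so reads from the overlap cannot be told apart. Fbxl14 itself averaged 31.1 ± 1.02 CPM in 3xTg vehicle and 34.4 ± 2.46 CPM in WT vehicle libraries (SD, n = 3 each), a difference in the other direction.

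Wnt4, a ligand known from kidney and gonad development, was at 18.6, 21.2 and 17.2 CPM in 3xTg vehicle libraries, against 15.1, 11.7 and 15.9 CPM in WT vehicle libraries. Its log2 fold change was 0.42 ± 0.18 (edgeR adjusted p = 0.348), and it was 0.41 without 3xTg vehicle replicate 2 and WT vehicle replicate 3. Wnt10b, a ligand known for favouring bone over fat cells, was at 1.47, 2.44 and 1.09 CPM in 3xTg vehicle libraries, against 1.14, 1.05 and 0.556 CPM in WT vehicle libraries. The groups overlapped, and the log2 fold change of 0.85 ± 0.37 (edgeR adjusted p = 0.347) came to 0.22 without those same libraries.

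Among receptors, Fzd3, which is needed for axon guidance in the forebrain, was at 51.9, 59.1 and 51.3 CPM in 3xTg vehicle libraries, against 48.8, 45.7 and 44.7 CPM in WT vehicle libraries. The groups did not overlap, with a log2 fold change of 0.22 ± 0.09 (edgeR adjusted p = 0.308). It was 0.12 without 3xTg vehicle replicate 2, its highest library, and WT vehicle replicate 3, its lowest.

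Fzd7, a receptor known in stem cells of several tissues, was at 13.8, 10.8 and 10.8 CPM in 3xTg vehicle libraries, against 13.9, 25.3 and 19.5 CPM in WT vehicle libraries. The nearest libraries of the groups almost touched, and the log2 fold change was -0.73 ± 0.27 (edgeR adjusted p = 0.291). The Fzd7 level moved with the choroid plexus markers: the 3 libraries with the highest marker score, WT vehicle replicates 2 and 3 and LP-10d replicate 2, also had the highest Fzd7. With the tissue scores as covariates the log2 fold change was -0.34. Lrp5 was at 25.5, 23.4 and 21.0 CPM in 3xTg vehicle libraries, against 25.7, 34.3 and 29.4 CPM in WT vehicle libraries, a log2 fold change of -0.36 ± 0.15 (edgeR adjusted p = 0.327). Its groups were separated by a similarly narrow gap, and with the same covariates the value was -0.19. Sfrp1 was highest, at 13.5 CPM, in WT vehicle replicate 2, and Sfrp5 had 4.0 and 3.77 CPM in WT vehicle replicates 3 and 2, the libraries with the top choroid plexus scores. The next highest Sfrp5 level, 3.07 CPM, was in 3xTg vehicle replicate 2, where the choroid plexus score was low at -1.45. The part of choroid plexus tissue in these differences was not tested.

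Ctnnb1 averaged 371 ± 25.4 CPM in 3xTg vehicle and 350 ± 40.2 CPM in WT vehicle libraries (SD, n = 3 each), a log2 fold change of 0.08 ± 0.10 (edgeR adjusted p = 0.703). Axin2, a widely used readout of canonical signalling, averaged 32.4 ± 3.11 and 34.0 ± 5.54 CPM in the same groups, a log2 fold change of -0.07 ± 0.13 (edgeR adjusted p = 0.826). Both signs turned without WT vehicle replicate 3, to -0.01 for Ctnnb1 and 0.01 for Axin2, and the Axin2 value was -0.20 without WT vehicle replicate 1. Wnt7a was at 14.3, 17.7 and 14.0 CPM in 3xTg vehicle libraries, against 15.2, 16.4 and 16.4 CPM in WT vehicle libraries, with a log2 fold change of -0.06 ± 0.12 (edgeR adjusted p = 0.838).

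Lef1 was at 2.89, 7.95 and 4.25 CPM in 3xTg vehicle libraries, against 2.86, 4.61 and 19.1 CPM in WT vehicle libraries. Its group difference rested on WT vehicle replicate 3: the log2 fold change was -0.82 ± 0.61 with it (edgeR adjusted p = 0.545), 0.40 without it, and -0.08 without that library and 3xTg vehicle replicate 2. These were the 2 libraries with the highest thalamus and habenula markers. Lef1 is known to be expressed in the thalamus of adult mice. The part of thalamic tissue in the Lef1 values was not tested.

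Other Wnt genes followed the same 2 libraries. In 8 of 48 Wnt genes (16.7%) they held the 2 highest values of all 9 libraries, beside 6.21% of all genes tested: Apc, Lef1, Nkd1, Tcf7, Wnt2b, Wnt3, Wnt9b and Znrf3. The level of Wnt9b, a ligand known from kidney tubule development, was 2.89 CPM in 3xTg vehicle replicate 2, 4.56 CPM in WT vehicle replicate 3 and 0.571 to 1.13 CPM in the remaining libraries. Wnt3 was at 5.56 and 6.51 CPM in those libraries and at 2.29 to 3.31 CPM in the rest. The share among Wnt genes was larger than among all genes, but these genes were not independent of each other, and the role of neighbouring tissue was not tested. WT vehicle replicate 3 did not differ from its group in thalamic markers alone. Dvl1 was at 134 CPM there, beside 182.5 and 207 CPM in WT vehicle replicates 1 and 2, and Dvl3 at 140 CPM, beside 88.7 and 86.9 CPM. Over all genes, too, this library differed most from its group, as given under the processing of the data.

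**Figure D2:**
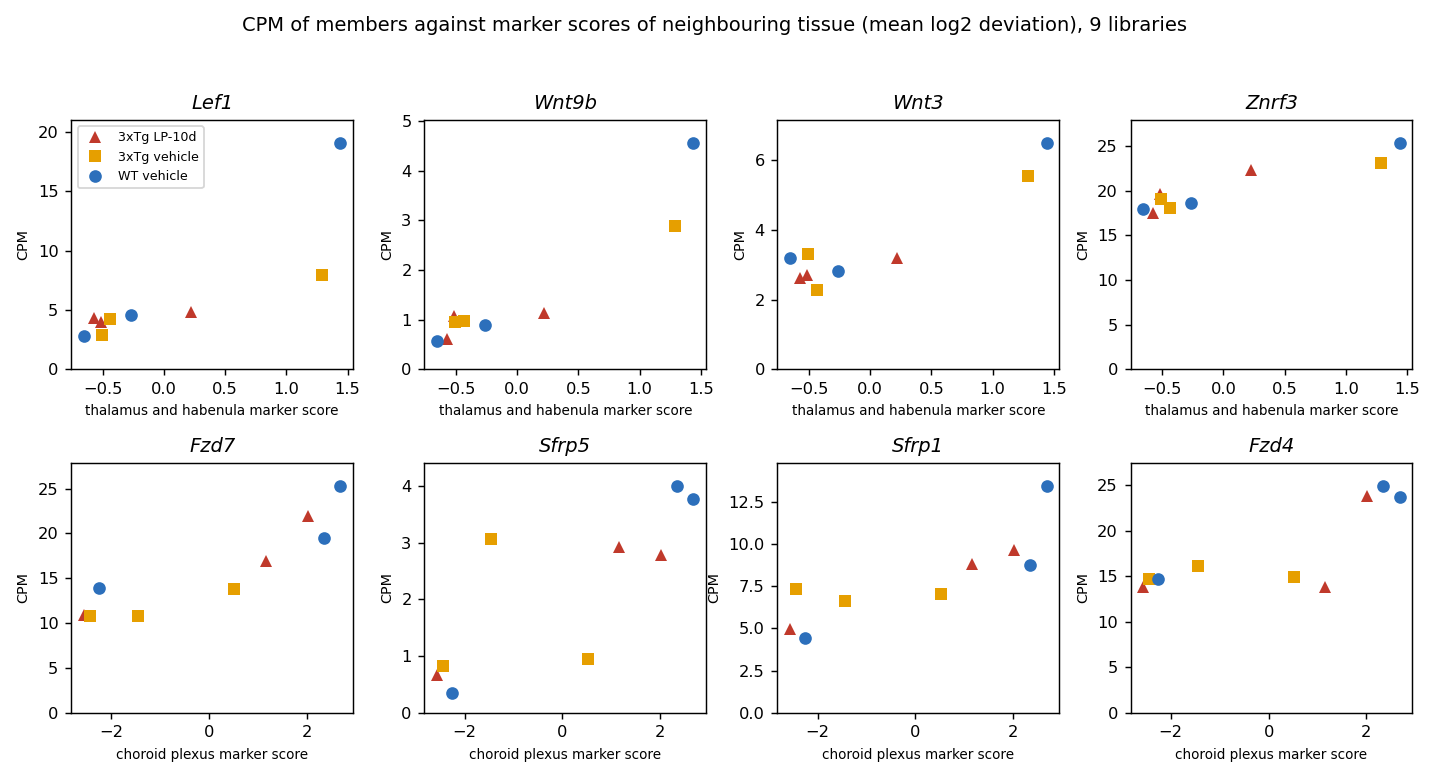
CPM of 8 Wnt genes in each library (vertical) against the thalamus and habenula marker score (upper row) or the choroid plexus marker score (lower row), both as mean log2 deviation from the 9 libraries. Lef1, Wnt9b, Wnt3 and Znrf3 were highest in the 2 libraries with scores of 1.29 and 1.44, and Fzd7 was highest, at 25.3 CPM, in the library with the top choroid plexus score.

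The second comparison asked how LP-10d stood against vehicle in 3xTg mice. No Wnt gene passed the adjusted threshold. Wnt7a had the smallest p: all 3 LP-10d libraries lay above all 6 vehicle libraries, 3xTg and WT alike. The receptor Fzd9 was also higher in each LP-10d library, while Tcf7 and Wnt5b were lower in each. Of the 17 ligands tested, 6 had a positive and 11 a negative fold change, of the 10 Frizzled receptors 7 and 3, and of the 6 secreted inhibitors 5 and 1, beside 8680 positive and 8716 negative over all genes. For Ctnnb1 and Axin2 the groups overlapped.

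By edgeR with Benjamini-Hochberg adjustment, 0 of 48 Wnt genes and 0 of 17396 genes (0%) were past 0.05. DESeq2 called 1 gene and limma-voom 0, with 0 Wnt genes in each. At an unadjusted edgeR p under 0.05 there were 2 of 48 Wnt genes (4.17%), both higher, beside 2.9% of all genes. The groups did not overlap for 4 Wnt genes (8.33%), beside 11.6% of all genes. The median log2 fold change of the 48 genes was -0.01, beside -0.000328 over all genes. Every Wnt gene had an adjusted p of 1.

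Wnt7a lies at chr6:91363981-91411363 on the minus strand (GRCm38). It was at 21.7, 20.3 and 18.2 CPM in LP-10d libraries, against 14.3, 17.7 and 14.0 CPM in 3xTg vehicle libraries. The lowest LP-10d library was just above the highest 3xTg vehicle library. The log2 fold change was 0.39 ± 0.12 (SE; edgeR unadjusted p = 0.00886, adjusted p = 1), which ranked 71 by p among 17396 genes. Over the 22 alternatives it ran from 0.33 to 0.51, with the largest value without 3xTg vehicle replicate 2 and WT vehicle replicate 3. With the tissue scores as covariates it was 0.46. As the groups did not overlap, leaving out libraries could not turn the sign.

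Fzd9, a receptor expressed in hippocampal progenitors of mice, was at 8.46, 8.95 and 7.96 CPM in LP-10d libraries, against 7.52, 6.53 and 6.64 CPM in 3xTg vehicle libraries. The groups did not overlap, with a log2 fold change of 0.29 ± 0.13 (edgeR adjusted p = 1). Fzd7 was at 17.0, 22.0 and 10.9 CPM in LP-10d libraries, against 13.8, 10.8 and 10.8 CPM in 3xTg vehicle libraries, and its order within LP-10d was again that of the choroid plexus scores, 1.16, 2.02 and -2.56. Its log2 fold change was 0.49 ± 0.27 (edgeR adjusted p = 1); it came to 0.24 without LP-10d replicate 2 and to 0.19 with the tissue scores as covariates.

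Tcf7, which encodes the DNA-binding factor TCF1, was at 3.84, 3.85 and 3.84 CPM in LP-10d libraries, against 4.0, 7.55 and 4.41 CPM in 3xTg vehicle libraries. The log2 fold change of -0.46 ± 0.24 (edgeR adjusted p = 1) rested on 3xTg vehicle replicate 2 and was -0.12 without it and WT vehicle replicate 3. Wif1, which binds Wnt proteins outside the cell, was at 0.508, 0.356 and 0.823 CPM in LP-10d libraries, against 0.684, 1.53 and 0.871 CPM in 3xTg vehicle libraries. The groups overlapped, and the log2 fold change of -0.84 ± 0.40 (edgeR adjusted p = 1) was -0.44 without those same libraries. Wnt5b was at 2.26, 3.08 and 1.98 CPM in LP-10d libraries, against 3.16, 3.18 and 3.10 CPM in 3xTg vehicle libraries, a log2 fold change of -0.37 ± 0.20 (edgeR adjusted p = 1), which was -0.57 without LP-10d replicate 2 and -0.24 without LP-10d replicate 3.

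Ctnnb1 averaged 375 ± 11.7 CPM in LP-10d and 371 ± 25.4 CPM in 3xTg vehicle libraries (SD, n = 3 each), a log2 fold change of 0.02 ± 0.10 (edgeR adjusted p = 1). Axin2 was at 28.8, 31.8 and 28.7 CPM in LP-10d libraries, against 29.3, 35.5 and 32.6 CPM in 3xTg vehicle libraries, a log2 fold change of -0.12 ± 0.13 (edgeR adjusted p = 1), which was -0.06 without 3xTg vehicle replicate 2. Lef1 was at 4.01, 4.80 and 4.34 CPM in LP-10d libraries, against 2.89, 7.95 and 4.25 CPM in 3xTg vehicle libraries. Its log2 fold change was -0.19 ± 0.65 (edgeR adjusted p = 1) and turned to 0.30 without 3xTg vehicle replicate 2.

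**Figure D3:**
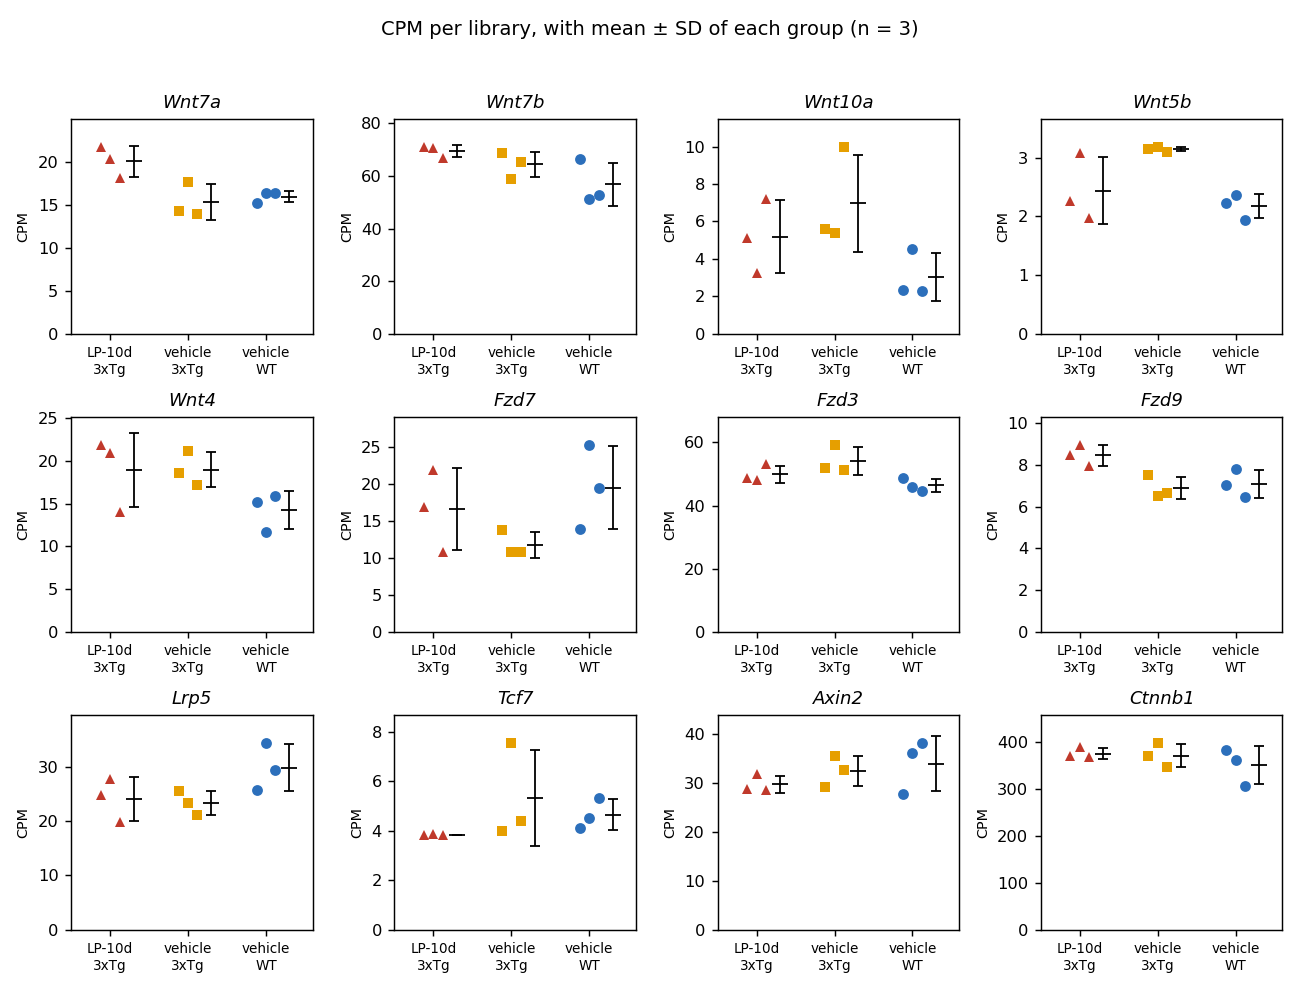
CPM (vertical, from 0) of 12 Wnt genes in each library of LP-10d 3xTg, vehicle 3xTg and vehicle WT mice, with black bars for the mean ± SD of 3 libraries. Wnt7a lies between 18.2 and 21.7 CPM in LP-10d libraries and at most at 17.7 CPM in the others, while Ctnnb1 and Axin2 overlap between groups.

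The third comparison set LP-10d 3xTg against WT vehicle mice, which differ in both genotype and treatment. It shares the LP-10d libraries with the second comparison and the WT libraries with the first. No Wnt gene passed the adjusted threshold. The 3 ligands Wnt7a, Wnt7b and Wnt4 had the smallest p-values, all with higher levels in LP-10d libraries. Of the 17 ligands tested, 12 had a positive fold change, beside 8605 of 17396 genes.

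By edgeR with Benjamini-Hochberg adjustment, 0 of 48 Wnt genes and 0 of 17396 genes (0%) were past 0.05. DESeq2 called 46 genes and limma-voom 0, with 0 Wnt genes in each. At an unadjusted edgeR p under 0.05 there were 3 of 48 Wnt genes (6.25%), beside 8.75% of all genes. The groups did not overlap for 5 Wnt genes (10.4%), 3 higher and 2 lower, beside 14.4% of all genes, 1303 higher and 1199 lower. The lower Wnt genes were Tcf7, with a log2 fold change of -0.28 ± 0.24, and the ligand Wnt8b, with -1.04 ± 0.64. Wnt8b rests on 87 counts over all libraries. In 3xTg vehicle against WT vehicle libraries it had -1.09 ± 0.64, and those groups overlapped. The median log2 fold change of the 48 genes was -0.01, beside -0.00268 over all genes.

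Wnt7a, at the LP-10d values given above, stood against 15.2, 16.4 and 16.4 CPM in WT vehicle libraries, a log2 fold change of 0.33 ± 0.12 (edgeR adjusted p = 0.568). Wnt7b was at 70.9, 70.5 and 66.7 CPM in LP-10d libraries, against 66.3, 51.4 and 52.6 CPM in WT vehicle libraries. The groups were separated by a narrow gap, with a log2 fold change of 0.29 ± 0.11 (edgeR adjusted p = 0.569). In 3xTg vehicle libraries Wnt7b was at 68.7, 59.0 and 65.3 CPM, values that overlapped with both other groups. Wnt7b shares 2222 bases with the noncoding gene AU022754 on the opposite strand, which had 529 counts beside 10290 of Wnt7b and averaged 3.94 ± 0.848 CPM in LP-10d, 3.59 ± 0.263 CPM in 3xTg vehicle and 2.27 ± 0.332 CPM in WT vehicle libraries. Its log2 fold changes over WT vehicle were 0.79 ± 0.21 for LP-10d (edgeR adjusted p = 0.516) and 0.66 ± 0.21 for 3xTg vehicle (edgeR adjusted p = 0.241), in the direction of Wnt7b. Reads from this overlap cannot be told apart either, as the strand setting is not given.

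Wnt4 was at 21.8, 20.9 and 14.0 CPM in LP-10d libraries, against 15.1, 11.7 and 15.9 CPM in WT vehicle libraries. The groups overlapped through LP-10d replicate 3, and the log2 fold change was 0.41 ± 0.18 (edgeR adjusted p = 0.569). Wnt10a was at 5.14, 3.26 and 7.19 CPM in LP-10d libraries, against 2.34, 4.51 and 2.28 CPM in WT vehicle libraries, a log2 fold change of 0.77 ± 0.38 (edgeR adjusted p = 0.588). It was 0.46 without LP-10d replicate 3 and 1.17 without WT vehicle replicate 2. Its neighbour Wnt6 was at 1.64, 1.54 and 0.823 CPM in LP-10d libraries, against 0.171, 1.31 and 0.389 CPM in WT vehicle libraries. Wnt6 rests on few counts, 164 over all libraries, and its log2 fold change was 1.05 ± 0.53 (edgeR adjusted p = 0.589), with values of 0.63 and 2.21 when WT vehicle replicate 1 or 2, in that order, was left out.

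Lrp5 was at 24.8, 27.7 and 19.8 CPM in LP-10d libraries, against 25.7, 34.3 and 29.4 CPM in WT vehicle libraries, a log2 fold change of -0.31 ± 0.15 (edgeR adjusted p = 0.586). It was -0.19 without LP-10d replicate 3 and -0.20 without WT vehicle replicate 2. Axin2 averaged 29.8 ± 1.75 CPM in LP-10d and 34.0 ± 5.54 CPM in WT vehicle libraries (SD, n = 3 each), a log2 fold change of -0.19 ± 0.13 (edgeR adjusted p = 0.639). Ctnnb1 had a log2 fold change of 0.10 ± 0.10 (edgeR adjusted p = 0.713). Both rested on the WT vehicle libraries: without replicate 1 they were -0.31 for Axin2 and 0.175 for Ctnnb1, and without replicate 3 they were -0.10 and 0.01. Lef1 had one of -1.01 ± 0.62 (edgeR adjusted p = 0.619), which turned to 0.22 without WT vehicle replicate 3.

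**Figure D4:**
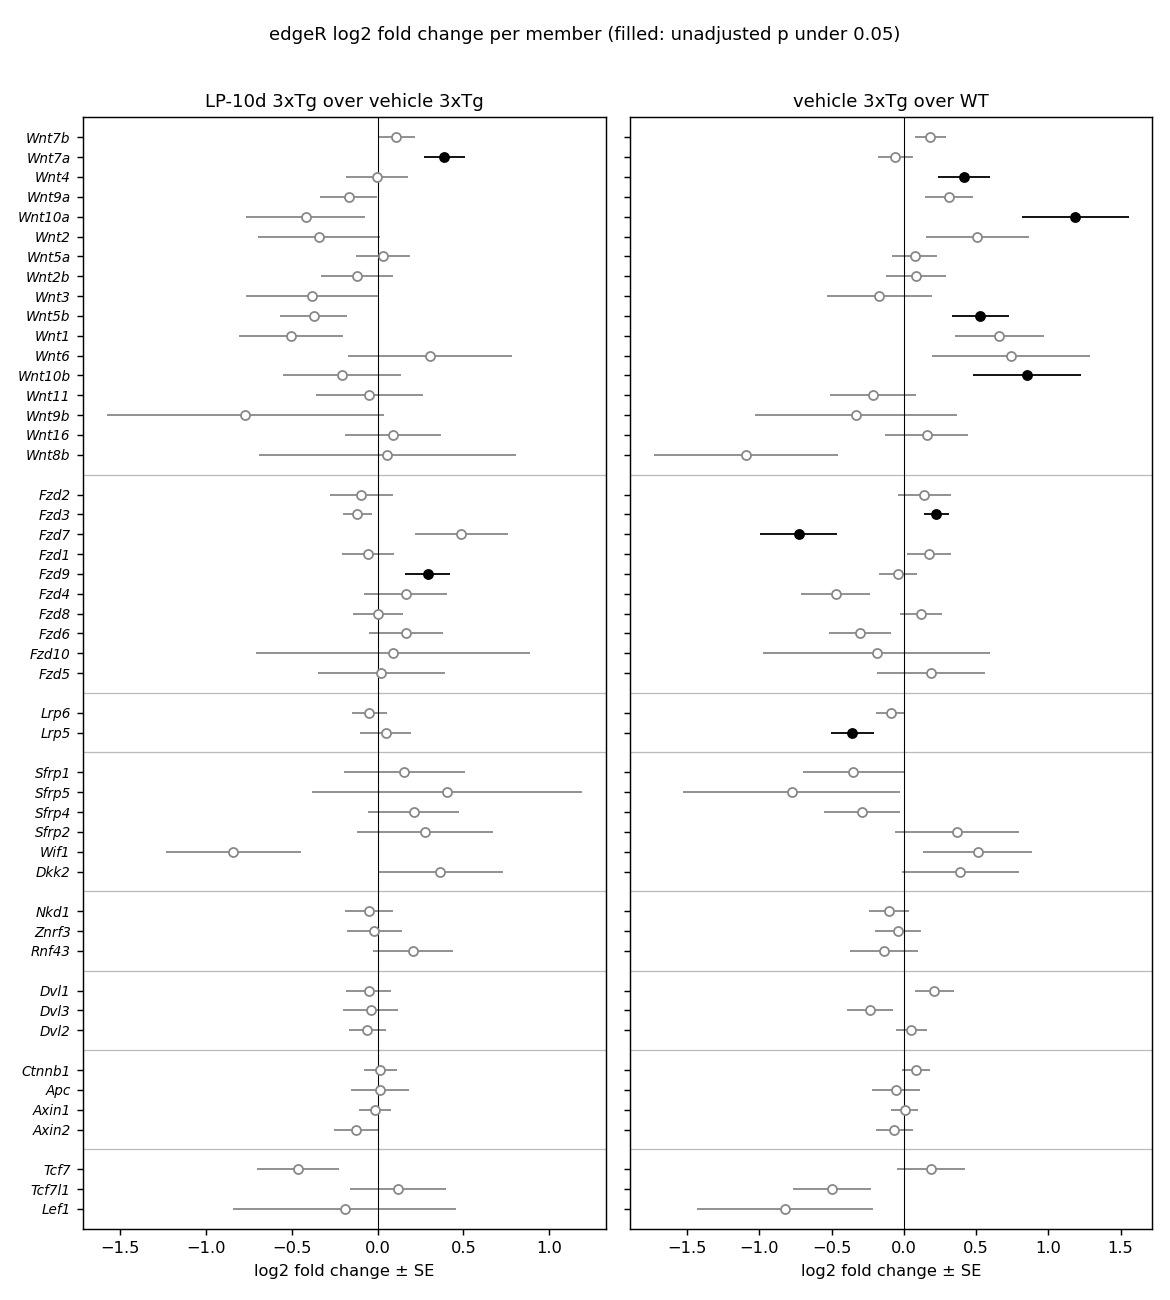
edgeR log2 fold change ± SE of each of the 48 Wnt genes, for LP-10d 3xTg over vehicle 3xTg (left) and vehicle 3xTg over WT (right), grouped by role. Filled symbols mark an unadjusted p under 0.05, 2 genes on the left and 7 on the right; none passed the adjusted threshold.

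Some Wnt genes lie side by side. In GRCm38 coordinates of GENCODE M21, 4 pairs of ligand genes were under 100000 bases apart. Wnt6 and Wnt10a lie on chromosome 1 in the same orientation with 6193 bases between them. Wnt10b and Wnt1 on chromosome 15 (11706 bases), Wnt3a and Wnt9a on chromosome 11 (16175 bases) and Wnt9b and Wnt3 on chromosome 11 (24328 bases) are in opposite orientation. Levels within a pair could differ widely: Wnt9a was at 3.55 FPKM and Wnt3a at 0.0617 FPKM. In Wnt9b and Wnt3 the same 2 libraries were highest, as given above. Wnt1, known from midbrain development, was at 1.37, 2.04 and 1.14 CPM in 3xTg vehicle libraries, against 1.09, 0.734 and 1.06 CPM in WT vehicle libraries, so its groups, like those of Wnt10a, did not overlap. Of the 53 genes, 16 overlap another gene on the opposite strand.

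The wider pathway was read from 92 further gene names in 8 lists, of which 91 were in the table and 89 passed the count filter. By edgeR with Benjamini-Hochberg adjustment, 0 of 89 passed in each of the 3 comparisons. At an unadjusted edgeR p under 0.05, 4 were higher and 15 lower in 3xTg vehicle than in WT vehicle mice (21.3% of 89, beside 14.1% of all genes, of which 1218 were higher and 1231 lower). In LP-10d over 3xTg vehicle mice 4 were higher and 2 lower (6.74%, beside 2.9% of all genes, 165 higher and 339 lower). In LP-10d over WT vehicle mice 5 were higher and 9 lower (15.7%, beside 8.75% of all genes, 710 higher and 813 lower). The medians of the 89 log2 fold changes were -0.03, 0.01 and -0.03. In 3xTg vehicle against WT vehicle mice, the list of planar polarity and other beta-catenin-independent genes held the most lower genes. At an unadjusted edgeR p under 0.05, 6 of its 18 genes (33.3%) were lower and 0 higher, beside 1231 of 17396 genes lower. The list was picked out of the 8 by this count. Other lists had as large a share: 4 of 12 further extracellular inhibitors (33.3%), 2 higher and 2 lower, and 1 of the 2 Wnt7 co-receptor genes (50%), lower. In the planar polarity list the smallest p-values belonged to Nfatc2, Ror1 and Prickle2. Their log2 fold changes were -0.41 ± 0.11, -0.59 ± 0.18 and -0.30 ± 0.10 (edgeR adjusted p = 0.199, 0.234 and 0.247).

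Dact2, of the Dapper family of Dishevelled-binding proteins, had the smallest p of these genes between 3xTg and WT. It was at 57.7, 65.6 and 67.2 CPM in 3xTg vehicle libraries, against 39.3, 42.9 and 32.6 CPM in WT vehicle libraries, a log2 fold change of 0.73 ± 0.13 (edgeR adjusted p = 0.0844). In LP-10d libraries it was at 54.6, 43.9 and 56.3 CPM, below every 3xTg vehicle library and above every WT library, with a log2 fold change of -0.30 ± 0.13 against 3xTg vehicle (edgeR adjusted p = 1).

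Dkkl1, a secreted relative of the Dickkopf inhibitors, was at 4.05, 8.85 and 7.46 CPM in 3xTg vehicle libraries, against 1.14, 1.78 and 0.890 CPM in WT vehicle libraries, a log2 fold change of 2.40 ± 0.45 (edgeR adjusted p = 0.0936). In LP-10d libraries it was at 2.26, 1.96 and 5.32 CPM, which overlapped with 3xTg vehicle and lay above WT vehicle. Ctbp2, a transcriptional co-repressor, was at 27.8, 27.6 and 25.0 CPM in 3xTg vehicle libraries, against 34.8, 35.0 and 42.3 CPM in WT vehicle libraries, a log2 fold change of -0.48 ± 0.11 (edgeR adjusted p = 0.117). It was at 32.1, 33.6 and 29.1 CPM in LP-10d libraries, between the other 2 groups.

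Rspo2, an R-spondin that protects Frizzled receptors from Znrf3 and Rnf43, was at 25.4, 25.8 and 21.8 CPM in LP-10d and at 28.5, 17.9 and 22.3 CPM in 3xTg vehicle libraries, against 16.4, 13.4 and 14.3 CPM in WT vehicle libraries. Both 3xTg groups lay above WT, with log2 fold changes of 0.73 ± 0.17 for LP-10d (edgeR adjusted p = 0.487) and 0.64 ± 0.17 for 3xTg vehicle (edgeR adjusted p = 0.175). Reck, the partner of Wnt7a and Wnt7b at brain endothelium, was at 16.8, 18.8 and 18.4 CPM in LP-10d and at 17.3, 19.1 and 19.7 CPM in 3xTg vehicle libraries, against 21.0, 21.5 and 23.0 CPM in WT vehicle libraries. Its log2 fold changes were -0.28 ± 0.10 (edgeR adjusted p = 0.561) and -0.22 ± 0.10 (edgeR adjusted p = 0.341), with no overlap between either 3xTg group and WT.

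Under LP-10d, after Dkkl1, the smallest p-values among the further genes belonged to Nkd2 and Frzb. Nkd2, a Dishevelled-binding inhibitor, was at 19.1, 17.7 and 12.8 CPM in LP-10d libraries, against 11.8, 9.88 and 8.06 CPM in 3xTg vehicle libraries, a log2 fold change of 0.74 ± 0.27 (edgeR adjusted p = 1). Frzb, a secreted Frizzled-related protein, was at 23.8, 27.0 and 18.8 CPM in LP-10d libraries, against 17.7, 17.9 and 12.1 CPM in 3xTg vehicle libraries, a log2 fold change of 0.54 ± 0.23 (edgeR adjusted p = 1). For both genes the groups did not overlap, and WT vehicle libraries, at 8.23 to 17.6 CPM for Nkd2 and 17.3 to 31.1 CPM for Frzb, overlapped with LP-10d.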

How the data were processed

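RNA from the hippocampus of 9 libraries was prepared with TRIzol and a column kit, and 300 ng went into an MGI library kit, per the labels' protocols. The authors deposited raw gene counts for 55471 genes, and FPKM values with names, biotypes and positions for the 33175 genes with a count. Per the submitters' processing notes the reads were handled on mm10. Which aligner and counter were used, and with which strand setting, is not given in the sources used here.

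The 17396 genes that passed filterByExpr entered edgeR 4.0.16 (R 4.3.3): TMM scaling, 1 fit of 9 libraries with group means, the newer quasi-likelihood test and Benjamini-Hochberg adjustment over all genes, with a threshold of 0.05. CPM are the deposited counts divided by TMM-adjusted totals. Marker scores are mean log2 deviations from the 9 libraries. The alternatives tried were DESeq2 1.42.0, limma-voom (limma 3.58.1), the legacy test, other scalings and filters, a fit of 6 libraries per comparison, libraries left out, a replicate block, tissue scores as covariates, and limma-trend on log2(FPKM + 0.1) and log2(FPKM + 1), a scale that understates changes of low genes. The scripts were tested on simulated data.

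The genes, lists and tests were chosen with earlier results of these data known. Described in full were, per comparison, the 6 tested Wnt genes with the smallest unadjusted p, plus Ctnnb1, Axin2, Lef1 and Wnt7a, and up to 3 genes from each further list. Wnt4, Dvl1 and Dvl3 in the first comparison, Tcf7 in the third, Wnt8b, Wnt1, Wnt3, Wnt9b, Znrf3, Sfrp1 and Sfrp5 were chosen after their values were seen.

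No 2 libraries of a group agreed within sampling noise (chi-square per degree of freedom of 4.99 to 51.1 over genes with at least 20 counts). The highest values, 48.2 and 51.1, were those of WT vehicle replicate 3 with WT vehicle replicates 1 and 2. Between WT vehicle replicates 1 and 2 the value was 21.2. Deviations from group means of same-numbered libraries correlated across genes at 0.173, 0.104 and 0.375 between LP-10d and 3xTg vehicle. Differently numbered libraries also correlated, at 0.18 for 3xTg vehicle replicate 1 with LP-10d replicate 2. For WT vehicle replicate 1 with LP-10d replicate 3 the value was 0.386. Between 3xTg vehicle and WT vehicle same-numbered libraries correlated at -0.173, -0.0906 and -0.118, and between LP-10d and WT vehicle at -0.178, 0.16 and -0.109. The labels name no pairs, so the main fit was unpaired, and the replicate block was only an alternative. Depth limits the lowest genes most: a count of 0 allows up to 3 counts, and such limits cover counting error only.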

Additional observations from a re-analysis of the deposited data

How the results depend on the processing

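Of 616 fold changes of the Wnt genes described in full, each under 1 of 22 alternatives, 604 kept their direction, 12 turned and 0 passed the adjusted threshold. The alternatives reuse the same libraries, and where groups did not overlap, leaving out libraries could not turn a direction. The count of kept directions is therefore no independent support. No Wnt gene was called under any alternative, the replicate block included (0 Wnt genes in each comparison). With the replicate block, Wnt7a in LP-10d over 3xTg vehicle had a log2 fold change of 0.39 (edgeR adjusted p = 1; 0.79 to 1 over the alternatives). The median of the 48 genes ran from -0.05 to 0.11 in 3xTg vehicle over WT vehicle, from -0.07 to 0.06 in LP-10d over 3xTg vehicle and from -0.09 to 0.09 in LP-10d over WT vehicle, within a spread between libraries of 0.13 (SD).

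The signs that turned belonged to Ctnnb1, Axin2, Lef1 and Wnt7a, and apart from Lef1 all values were near 0. Leaving out 1 or 2 libraries, the log2 fold changes in 3xTg vehicle over WT vehicle ran from -0.0631 to 0.152 for Ctnnb1, from -0.196 to 0.0149 for Axin2, from -1.31 to 0.40 for Lef1 and from -0.18 to 0.000656 for Wnt7a. In LP-10d over 3xTg vehicle they ran from -0.0297 to 0.0738 for Ctnnb1 and from -0.47 to 0.30 for Lef1, and in LP-10d over WT vehicle from -1.42 to 0.22 for Lef1. With tissue scores as covariates Lef1 in LP-10d over 3xTg vehicle was 0.29. For Lef1, 3xTg vehicle replicate 2 and WT vehicle replicate 3 held the high values, at 7.95 and 19.1 CPM beside 2.86 to 4.80 CPM elsewhere. The cause of the turned signs was not tested for any of these genes.

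Precision is limited by 3 libraries per group and, for Wnt8b, Wnt6, Wif1, Wnt10b and Wnt1, by counts of 87 to 217 over all 9 libraries. For genes that overlap on opposite strands, the strand setting of the counting is not given. Which gene received the reads from the shared bases is therefore not known.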
